A study of Mus musculus with 4 samples.

Results

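A set of 9 genes that cells switch on within minutes of a stimulus or of stress were followed through single-cell RNA sequencing of the medial ganglionic eminence (MGE), a progenitor zone of the ventral embryonic forebrain. The 9, of 32285 in the files, were taken by symbol from a fixed list. They comprised 7 immediate early genes (Jun, Junb, Fos, Fosb, Atf3, Egr1 and Ier2) and 2 inducible heat shock genes (Hspa1a and Hspa1b). The study made 4 libraries with 10x Genomics droplets from MGE of e14.5 mouse embryos. The aim was to ask whether St18, a zinc finger transcription factor, directs cell fate while progenitors are specified. The libraries formed groups of 2, labelled St18(-/-) and WT. Null embryos carried a whole-animal deletion of St18, made with the germline driver E2a-Cre, and WT embryos were littermates. The parents were St18 heterozygotes, and the strain of all embryos was a mix of C57/BL6 with ICR. In all 4 libraries, tissue was dissected in chilled Hibernate A while embryos were genotyped, then pooled by genotype and dissociated. How many embryos went into a pool, and of which sex, was not stated. No library was made with transcription blocked, without dissociation, or after a stimulus, so induction in the embryo and induction during dissection cannot be told apart.

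Immediate early genes need no new protein for their transcription. In neurons, calcium entry and growth factor signalling act through kinases on factors such as SRF, its ELK partners and CREB that already sit on these promoters. Jun, Junb, Fos and Fosb encode subunits of the dimeric factor AP-1, Atf3 encodes a stress-induced partner of the same family, Egr1 encodes a zinc finger factor, and Ier2 encodes a small nuclear protein. Hspa1a and Hspa1b encode the inducible HSP70 chaperone and are switched on by HSF1 when proteins misfold. Warm enzymatic dissociation is widely known to induce both groups, in microglia and vessel cells above all, which is why they are often read as a sign of handling.

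In total, 20290 cells with at least 2000 UMIs (unique molecular identifiers, each counting 1 captured RNA molecule) and at most 10% mitochondrial UMIs were kept, between 4297 and 6800 a library. The libraries held 70991150 to 92984713 UMIs, and a kept cell held a median of 5857 to 8678. Levels below are CPM, the UMIs of a gene per 1000000 UMIs of the class in that library. They are compared between cells for the same gene and not between genes, since genes differ in how well they are captured. Where 4 values are listed, they are null replicates 1 and 2 and then WT replicates 1 and 2. St18 itself stood at 24.9, 76.2, 43.6 and 56.7 CPM in neurons, so the library labelled null replicate 2 was above both WT libraries. The deletion removes exons 9 and 10 and leaves a truncated transcript whose remaining part is still counted, so this level does not check the genotype. In neurons and progenitors together, Xist stood at 606 and 1411 CPM in the null libraries and at 0.284 and 0.0734 CPM in the WT libraries, so the null libraries held cells of both sexes by these transcripts and the WT libraries almost wholly male cells. The libraries shared 5 to 12 cell barcodes a pair, where random draws would give 2.97 to 5.34. Each library was a pool of embryos, so p-values below measure only the spread between these pools.

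Clusters made without the 9 genes and the related lists gave 11303 neurons and 8661 progenitors. Of the progenitors, 2993 cells of 6 clusters were named radial glia-like. Their score for Hes1, Hes5, Fabp7, Slc1a3, Nes, Sox9 and Id4 exceeded their score for basal progenitor markers. The summed level of these radial glia markers was 3882 to 4428 CPM there and 612 to 675 CPM in the other progenitors. Of the 6, progenitor clusters 2 and 15 (855 and 164 cells) had radial glia scores of -0.017 and -0.093, below the mean of all progenitors. Small clusters were named microglia-like (133 cells), erythroid (161 cells) and oligodendrocyte precursor-like (32 cells). The microglia-like cluster also held vessel cells, since its summed endothelial markers stood at 1438 to 1853 CPM and its mural markers at 783 to 1955 CPM. Its summed erythroid markers ran from 64.6 to 187024 CPM.

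The promoters of 3 members are shown for the motifs that were searched in them. The CRE binds CREB and its relatives, the heat shock element binds HSF1, and the TATA box is a core promoter element that places the start of transcription. Each sequence is the 250 bases before the start of the gene in RefSeq, build GRCm38.p6, on the gene's strand, and the table used holds 7 of the 9 members. The Fos promoter is chr12:85473640-85473889 (+), the Jun promoter chr4:95052223-95052472 (-) and the Hspa1a promoter chr17:34972157-34972406 (-). Capitals mark the CRE core TGACG and the TATA box TATAAA in Fos, and the heat shock element core GAANNTTC in Jun and Hspa1a.
Fos: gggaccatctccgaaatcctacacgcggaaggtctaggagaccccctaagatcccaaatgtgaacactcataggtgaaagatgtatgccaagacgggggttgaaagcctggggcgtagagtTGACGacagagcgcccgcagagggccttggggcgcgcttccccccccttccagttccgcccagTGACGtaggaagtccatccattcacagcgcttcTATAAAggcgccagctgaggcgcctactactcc
Jun: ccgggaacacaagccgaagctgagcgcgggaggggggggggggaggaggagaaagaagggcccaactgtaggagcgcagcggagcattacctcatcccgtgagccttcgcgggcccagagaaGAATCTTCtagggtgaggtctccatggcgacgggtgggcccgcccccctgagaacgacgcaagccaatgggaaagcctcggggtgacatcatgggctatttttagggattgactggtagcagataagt
Hspa1a: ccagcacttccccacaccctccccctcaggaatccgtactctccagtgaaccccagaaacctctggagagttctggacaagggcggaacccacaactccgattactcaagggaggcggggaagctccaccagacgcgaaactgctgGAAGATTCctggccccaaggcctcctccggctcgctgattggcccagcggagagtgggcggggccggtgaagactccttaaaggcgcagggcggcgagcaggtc

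The CRE core stood in 4 of the 7 member promoters (Fos, Fosb, Junb and Atf3) and in 17.8% of 32851 mouse promoters of the same length, searched on both strands. In Fos it began 129 and 66 bases before the start. The heat shock element core stood in 3 (Jun, Hspa1a and Hspa1b) and in 6.69% of all promoters, and in both HSP70 genes it began 104 bases before the start. The full CRE (TGACGTCA), the AP-1 site (TGANTCA) and the CArG box, the site of SRF, were in none of the 7 windows and in 1.55%, 6.75% and 1.47% of all promoters. Bases further than 250 from the start, and the promoters of Egr1 and Ier2, were not searched. The CRE and the AP-1 site were counted only as exact matches to these letters. The Jun window holds tgacatca, which differs from the full CRE by a single base and was not counted. Absence from these windows does not mean that the genes lack such sites. The CRE core lies within the full CRE, and a CArG box can hold a TATA box. The Hspa1b promoter was 98.8% identical to that of Hspa1a. Their transcripts of 2967 and 2803 bases were 84.3% identical end to end, but only 46.8% over the last 500 bases, where droplet libraries of this kind take most of their reads.

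Most members gave few UMIs in neurons and progenitors. Fos, Fosb, Egr1, Atf3, Hspa1a and Hspa1b together gave 311 UMIs in 19964 neural cells. At least 1 UMI of any of the 6 was found in 285 cells, or 1.43%, and 2 or more of the 6 genes were found in 5 cells. No neural cell held 3 of them. By library the cells with a UMI made up 1.19%, 2.30%, 1.22% and 1.17% of the neural cells, highest in the library labelled null replicate 2, which was also the most deeply sampled per cell. No neural cell held more than 3 UMIs of the 6 genes summed. A group of neural cells with a broad immediate early or heat shock program was thus not seen at this depth.

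Fos (chr12:85473890-85477273, + strand), the AP-1 subunit most used as a mark of neuronal activity, stood at 0.678, 1.19, 1.35 and 0.963 CPM in neurons and at 0.354 to 0.437 CPM in progenitors, from 71 and 31 UMIs. The level in neurons was above that in progenitors in every library. Fosb (chr7:19302696-19310051, - strand) gave 10 UMIs in all neural cells, and 5 of them in neurons. Atf3 (chr1:191170296-191218039, - strand) gave 4 UMIs in neurons and 22 in progenitors, where it stood at 0.236 to 0.364 CPM. Egr1 gave 26 and 44 UMIs, or 0.271 to 0.516 CPM in neurons and 0.390 to 0.851 CPM in progenitors. The ranges of the 4 libraries overlapped between the classes for Egr1 and did not for Fos and Atf3. In background droplets Atf3 stood at 0 to 0.555 CPM from 2 UMIs and Egr1 at 0 to 0.986 CPM from 3 UMIs, ranges that span both classes, so no difference in expression is read from the levels of either gene.

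The inducible heat shock members gave few UMIs. Hspa1a (chr17:34969190-34972156, - strand) gave 14 UMIs in neurons and 34 in progenitors, at 0.148 to 0.226 and 0.331 to 0.472 CPM. Hspa1b (chr17:34956436-34959238, - strand) gave 15 and 40 UMIs, at 0.136 to 0.271 and 0.319 to 0.804 CPM. Neither gene's ranges overlapped between the classes. In background droplets Hspa1a stood at 0 to 0.694 CPM and Hspa1b at 0 to 1.57 CPM, from 3 and 7 UMIs, ranges that span both classes, so no difference in expression is read from these levels. In other progenitors the library labelled null replicate 2 was highest for Hspa1b, at 0.989 CPM against 0.211 to 0.717 in the rest. Microglia-like, erythroid and oligodendrocyte precursor-like cells held no Hspa1a UMI, and a single Hspa1b UMI was found among them. Constitutive chaperones were measured in the same cells. Hspa8, the everyday HSP70 of the cytosol, stood at 1040 to 1158 CPM in neurons and 1077 to 1283 CPM in progenitors, and Hsp90ab1 at 2905 to 3786 and 2854 to 3871 CPM. In background droplets Hspa8 stood at 1446 to 1640 CPM, above both classes.

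**Figure D1:**
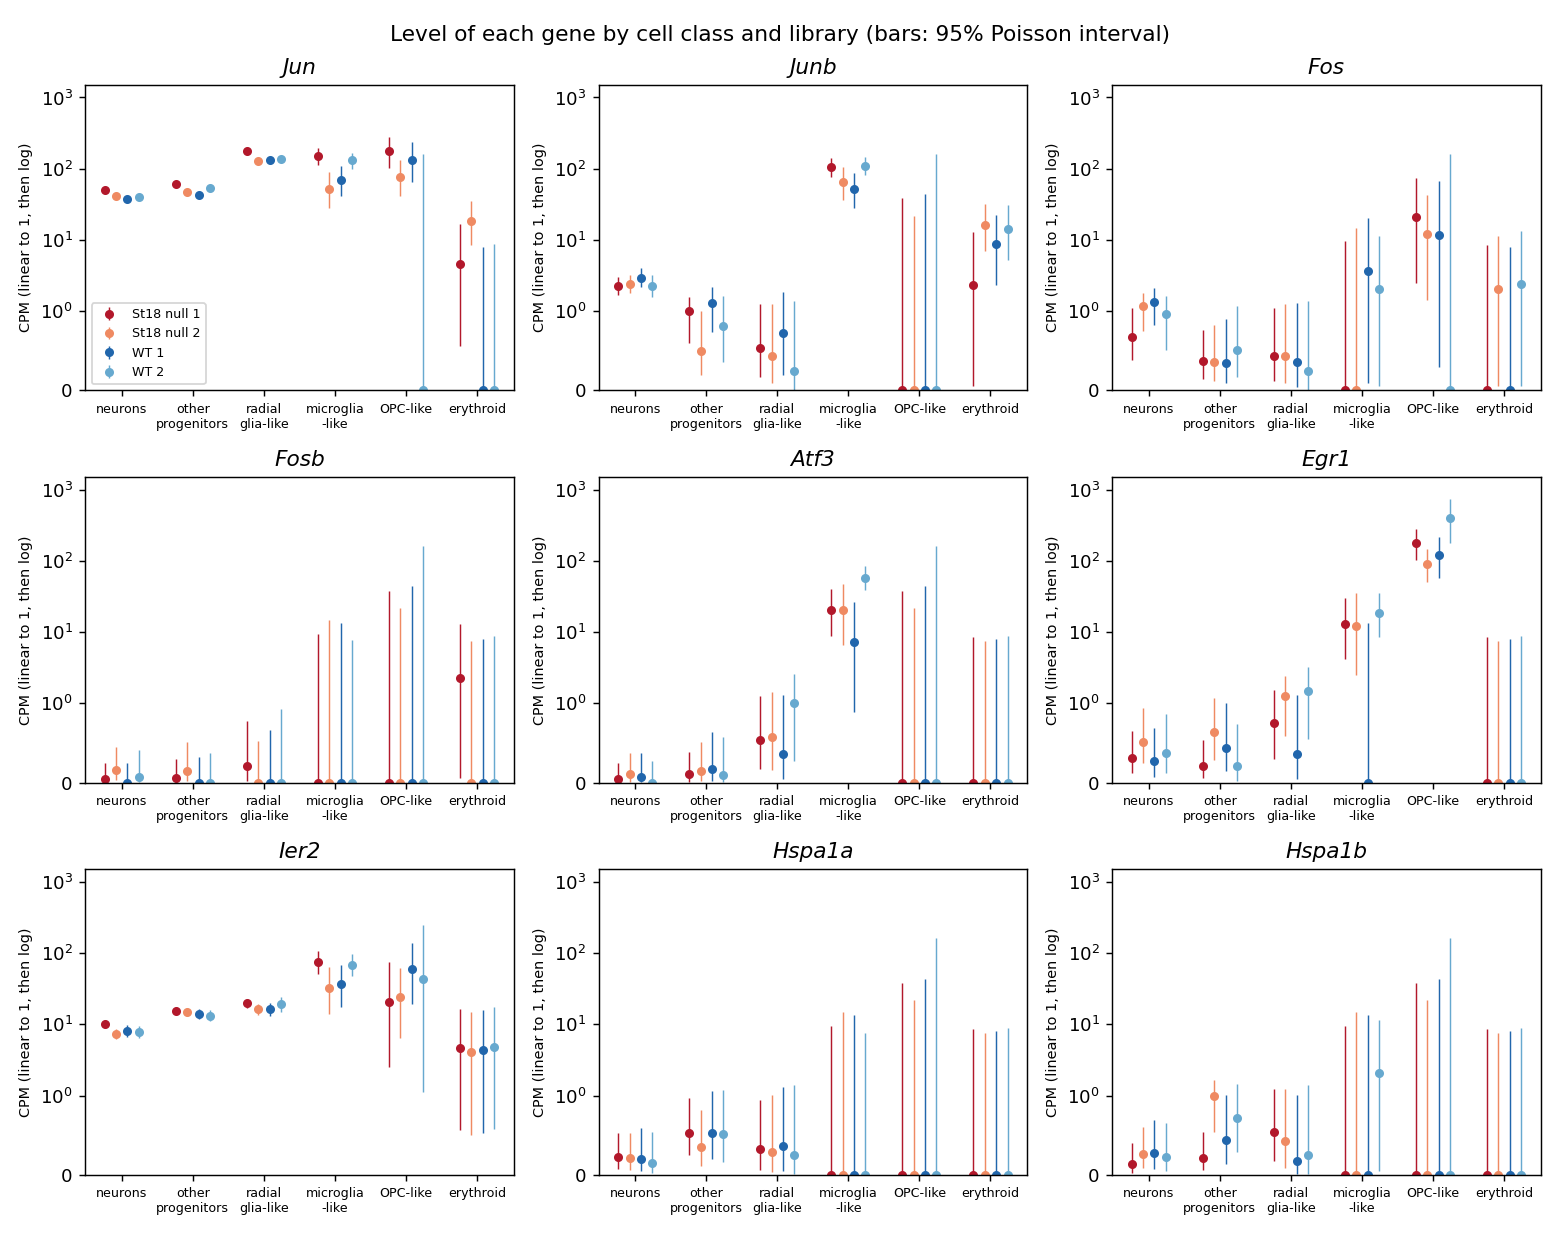
Level of the 9 genes (CPM on an axis that is linear up to 1 and logarithmic above it) in 6 cell classes, with a point for each library and its exact 95% Poisson interval, which covers counting error only. Jun and Ier2 were found in every neural class, Junb and Atf3 stood out in the microglia-like cluster and Egr1 in oligodendrocyte precursor-like (OPC-like) cells, and the points on the zero line are libraries with no UMI.

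Jun (chr4:95049034-95052222, - strand), the central AP-1 subunit, gave 9653 UMIs in 4983 of 19964 neural cells. In neurons it stood at 51.1, 41.0, 37.2 and 40.7 CPM. In radial glia-like cells it stood at 177, 127, 133 and 136 CPM, and in other progenitors at 60.6, 47.1, 42.6 and 53.0 CPM. Every library of radial glia-like cells was thus above every library of both other neural classes, whose ranges overlapped each other. The microglia-like cluster (150, 52.6, 69.6 and 131 CPM) and the oligodendrocyte precursor-like cells (176, 77.7, 131 and 0 CPM, the last from 3 cells) spread across these ranges. Erythroid cells were lowest, at 4.62, 18.5, 0 and 0 CPM, where 0 UMIs allow up to 6.50 and 7.23 CPM in the WT libraries (a limit of 3 UMIs a library, while the plotted exact intervals reach 7.99 and 8.89 CPM). Summed erythroid markers stood at 865628 to 893170 CPM in erythroid cells, which lowers the CPM of every other gene there. The antisense gene Junos overlaps Jun, and whether the authors' counting kept strands apart is not given in the sources used here.

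Ier2 (chr8:84661331-84662852, - strand) gave 1851 UMIs in 1692 neural cells. It stood at 10.2, 7.38, 8.12 and 7.78 CPM in neurons, at 15.5, 14.8, 14.1 and 13.2 CPM in other progenitors and at 19.9, 16.2, 16.2 and 19.1 CPM in radial glia-like cells. These 3 ranges did not overlap, but background droplets held Ier2 at 12.2 to 15.8 CPM, a range that overlaps that of other progenitors, so Ier2 is not read as expression in that class. The microglia-like cluster was higher still, at 75.0, 32.4, 36.6 and 68.5 CPM. Oligodendrocyte precursor-like cells stood at 20.7, 23.9, 59.6 and 43.9 CPM from 12 UMIs, a range that overlapped that of the microglia-like cluster. Erythroid cells were lowest in CPM, at 4.10 to 4.82 CPM, but erythroid markers took most of their UMIs.

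Junb (chr8:84974484-84978718, - strand, overlapping Prdx2 on the other strand) had its higher level in neurons, with 172 UMIs in neurons and 62 in progenitors. It stood at 2.26 to 2.98 CPM in neurons and at 0.473 to 1.12 CPM in progenitors, with no overlap. Barcodes under 100 UMIs, taken here as background droplets, held Junb at 1.97, 1.04, 2.22 and 4.20 CPM from 19 UMIs. This range spans that of neurons, so Junb is not read here as expression by neurons. Of the neuronal UMIs, 11 came from WT replicate 1 in a single cluster (neuron cluster 14, low in UMIs and led by Hist1h1b, Hbb-bs and Fabp7), where Junb stood at 71.8 CPM against 0 to 9.59 in the other libraries. A single neural cell held 11 Junb UMIs, the most of any.

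Free RNA bears on these levels, since droplets without a cell also hold UMIs. In barcodes under 100 UMIs, Jun stood at 49.3, 37.8, 37.7 and 38.8 CPM, a range that overlapped that of neurons in the same libraries. Ier2 stood at 15.8, 13.5, 12.2 and 15.2 CPM there, above its level in neurons in all 4 libraries. Jun in radial glia-like cells was over 3 times its level in background droplets (177 against 49.3 CPM in null replicate 1, 127 against 37.8 in the library labelled null replicate 2). Erythroid cells gave a Jun UMI in 4.08%, 7.32%, 0% and 0% of 32 to 49 cells, where 0 cells allow a share of up to 7.69% and 9.38%. An Ier2 UMI was found in 4.08% to 6.25% of erythroid cells. Most UMIs of these cells were of erythroid markers, and whether they lack both genes was not tested. With all UMIs, Ier2 was found in 4.03% to 5.95% of neurons, a range that overlaps that of erythroid cells. The neuron share was higher than the erythroid share in both null libraries and lower in both WT libraries. Since its level in neurons lay below that in background droplets, Ier2 is not read as expression by neurons. Such a level does not show that a class lacks the gene, for Ier2 or the other members set against background droplets. Hspa8 too lay below its background level, in neurons and progenitors. Jun was found in 13.5% to 19.4% of neurons and 32.0% to 40.2% of progenitors. The median cell held 9879 to 12820 UMIs among erythroid cells, 5228 to 7729 among neurons and 7476 to 11092 among progenitors.

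**Figure D2:**
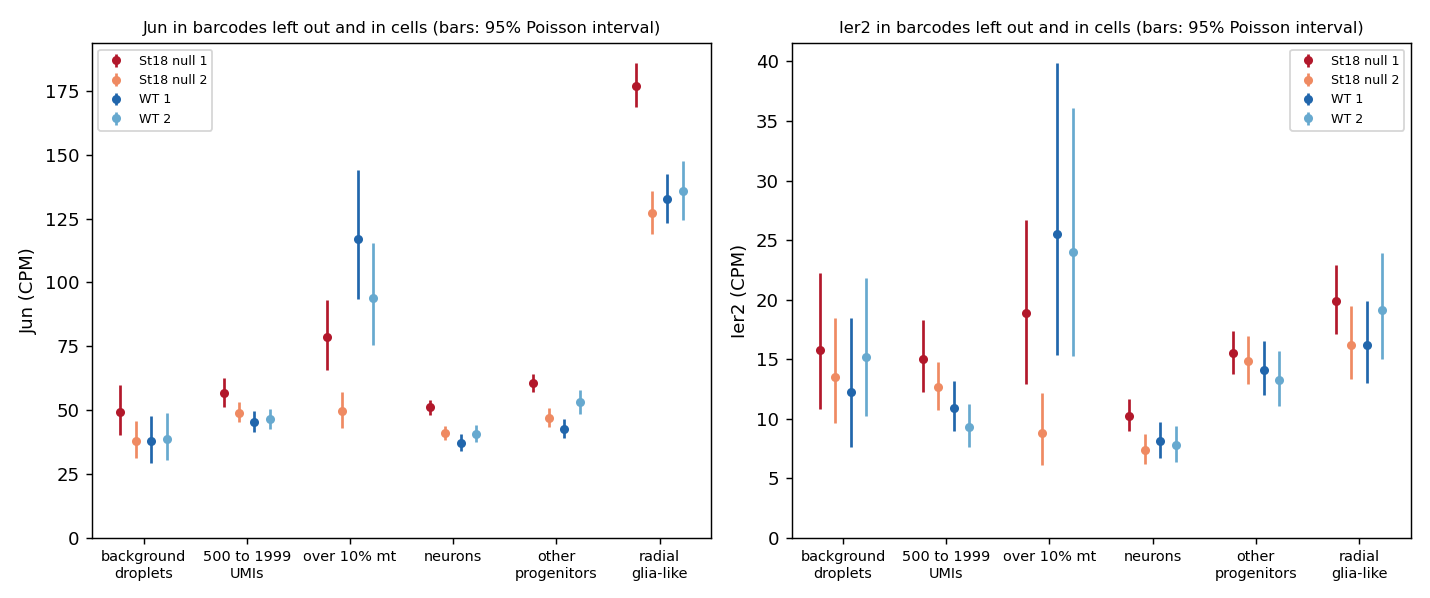
Jun (left) and Ier2 (right) in CPM in barcodes that were left out (background droplets under 100 UMIs, barcodes with 500 to under 2000 UMIs, and barcodes over the 10% mitochondrial limit) and in 3 classes of kept cells, with a point for each library and its exact 95% Poisson interval. Null replicate 1 was highest for Jun in 5 of the 6 sets, among them the background droplets, and the exception was the barcodes over the mitochondrial limit, where WT replicate 1 was highest at 117 CPM.

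Within the classes, the level of Jun differed widely between clusters. Across 41 neuron and progenitor clusters, the mean of the 4 libraries ran from 178 CPM in progenitor cluster 6 (radial glia-like, led by Rgcc, Otx2 and Hes5) to 11.5 CPM in neuron cluster 17 (led by Six3os1, Six3 and Tshz2). The next highest were also radial glia-like, progenitor cluster 5 (Anxa2, Sparc, Hmga2) at 167 ± 30.04 CPM (SD, n = 4) and progenitor cluster 12 (Dio3, Ptx3, Hhip) at 164 ± 34.2 CPM. Neuron cluster 9, led by Lgi1 and Htr3a, followed at 119, 88.0, 92.4 and 98.8 CPM, above the whole range of every other neuron cluster with over 100 cells. Jun was lowest in neuron clusters 15 (Npy1r, Arap2, Ptprt) at 22.2, 11.9, 9.61 and 6.17 CPM and 17 at 27.6, 6.91, 3.45 and 7.99 CPM, below background droplets of their own library in all 4. Jun was above the background droplets of the same library in all 4 libraries in 9 of 19 progenitor clusters and in 4 of 22 neuron clusters (1, 2, 3 and 9), and Ier2 in 4 and 0. Of the 40 pairs of neighbours in this order, none had ranges over the 4 libraries that did not overlap.

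**Figure D3:**
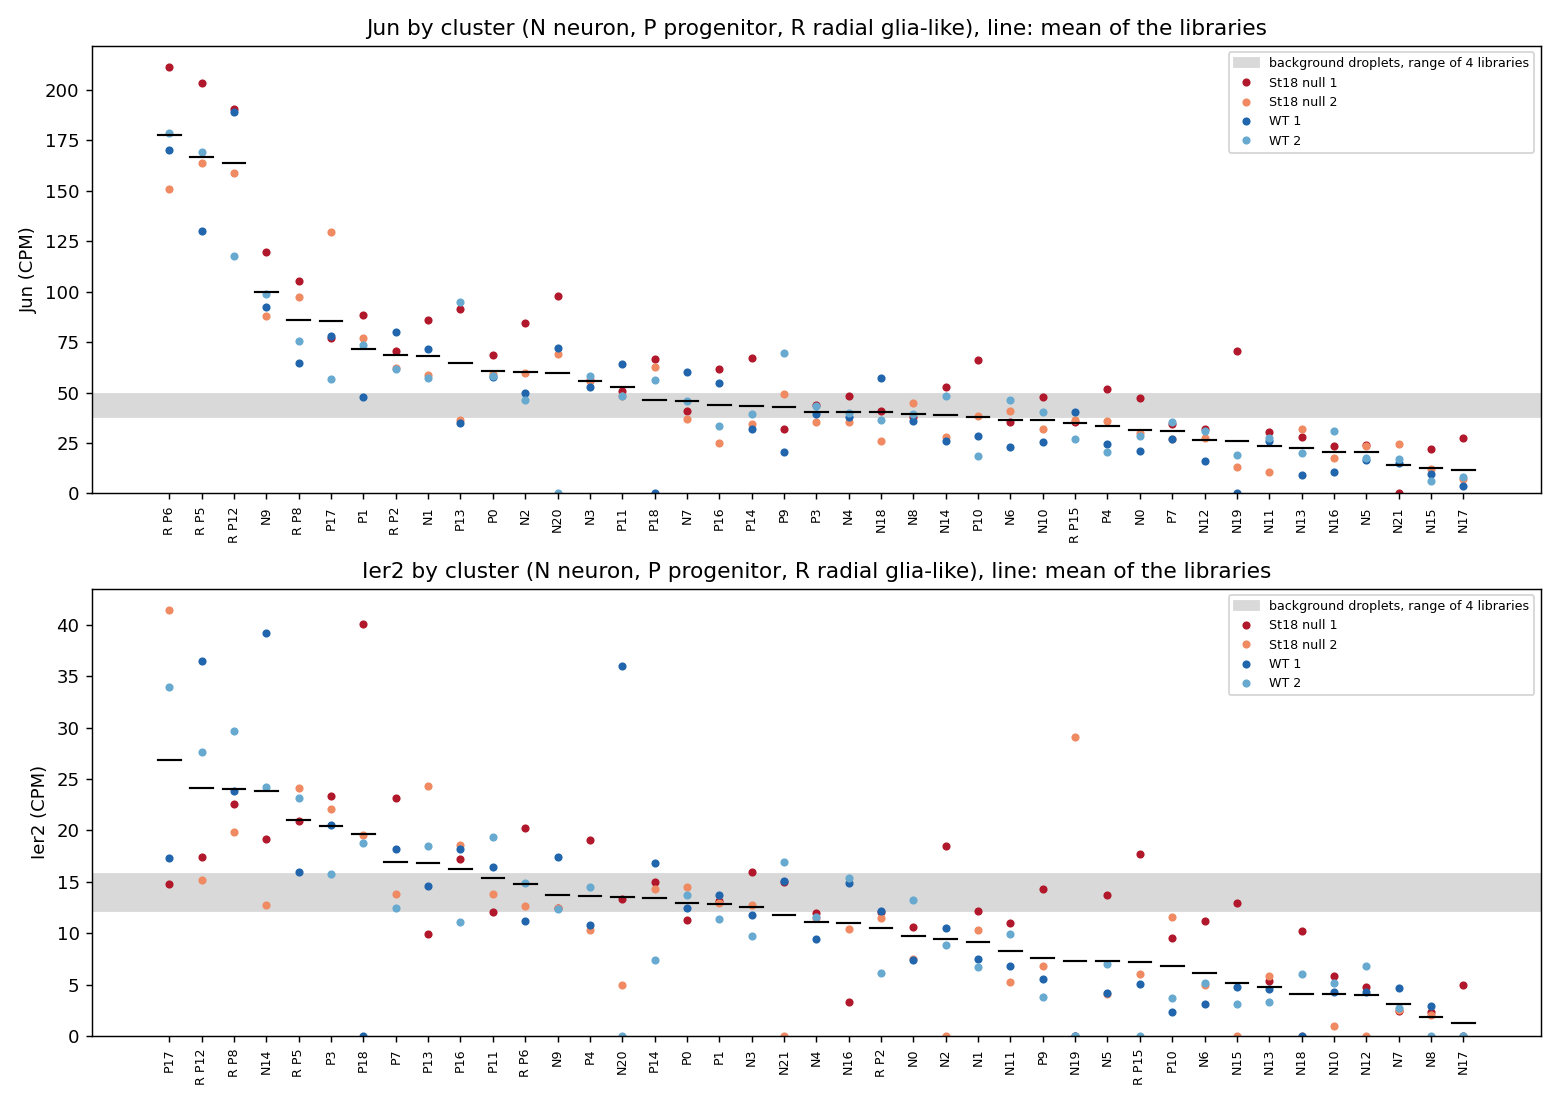
Jun (top) and Ier2 (bottom) in CPM in 22 neuron (N) and 19 progenitor (P) clusters, ordered by the mean of the libraries (black line), with a point for each library, R for radial glia-like clusters and a grey band for the range of background droplets. Jun reached 178 CPM in progenitor cluster 6 and fell to 11.5 CPM in neuron cluster 17. The mean of Ier2 lay under the top of the grey band in most neuron clusters.

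A pair of radial glia-like clusters were low in UMIs. Progenitor cluster 2, with a median of 2643 UMIs a cell, held Jun at 61.6 to 80.2 CPM, and progenitor cluster 15 at 26.9 to 40.2 CPM. Progenitor cluster 8 (Bcan, Sulf1, Rlbp1), with a median of 7602 UMIs a cell, stood at 64.6 to 105 CPM for Jun. It had the highest mean Egr1 of the neural clusters, with 14 UMIs at 1.70 to 4.63 CPM. The highest mean of Ier2 was in progenitor cluster 17 (Isl1, Cdkn1c, Plk3) at 14.8 to 41.4 CPM, from 21 UMIs in 106 cells. That range overlapped the range of progenitor cluster 12, which reached 36.5 CPM, and cluster 17 was not above background droplets in every library.

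Progenitors were compared with neurons to ask where in the lineage the members are expressed, with counts summed per library and class and the library as a block. All adjusted p-values come from edgeR's quasi-likelihood test unless DESeq2 is named, and errors of log2 fold changes are SE. Jun was higher in progenitors by 0.98 ± 0.045 on the log2 scale (adjusted p = 2.09e-12), Ier2 by 0.94 ± 0.075 (adjusted p = 3.46e-09) and Hspa1b by 1.27 ± 0.39 (adjusted p = 0.00726). Junb was lower by 1.61 (log2 fold change -1.61 ± 0.22, adjusted p = 4.23e-06) and Fos was lower (-1.31 ± 0.30, adjusted p = 0.000866). In background droplets Junb stood at 1.04 to 4.20 CPM, a range that spans that of neurons, and Hspa1b at 0 to 1.57 CPM from 7 UMIs, a range that spans both classes. Fos stood there at 0 to 0.493 CPM, but from only 2 UMIs. Its exact Poisson intervals in background droplets reach 1.93 to 2.75 CPM, above its level in neurons of every library. These counts are too few to place Fos in background droplets below neurons. The part of free RNA in these differences was not tested. Egr1 did not pass (0.62 ± 0.33, adjusted p = 0.0958), and Fosb, Atf3 and Hspa1a were too low to test. A gene was tested if at least 2 library sums reached 0.550 CPM. Fos passed this filter through neurons alone, and Hspa1b and Egr1 through progenitors alone, in each case the class where the gene is higher, so the number of tested members called is no support for a difference. Without the filter, where all 9 members were fitted, Fos had an adjusted p of 0.000217 and Hspa1b of 0.0208. Among all genes, 79.9% of 14418 differed, 39.5% higher and 40.5% lower in progenitors, so calls are common between these classes. DESeq2 did not call Hspa1b (adjusted p = 0.0870).

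**Figure D4:**
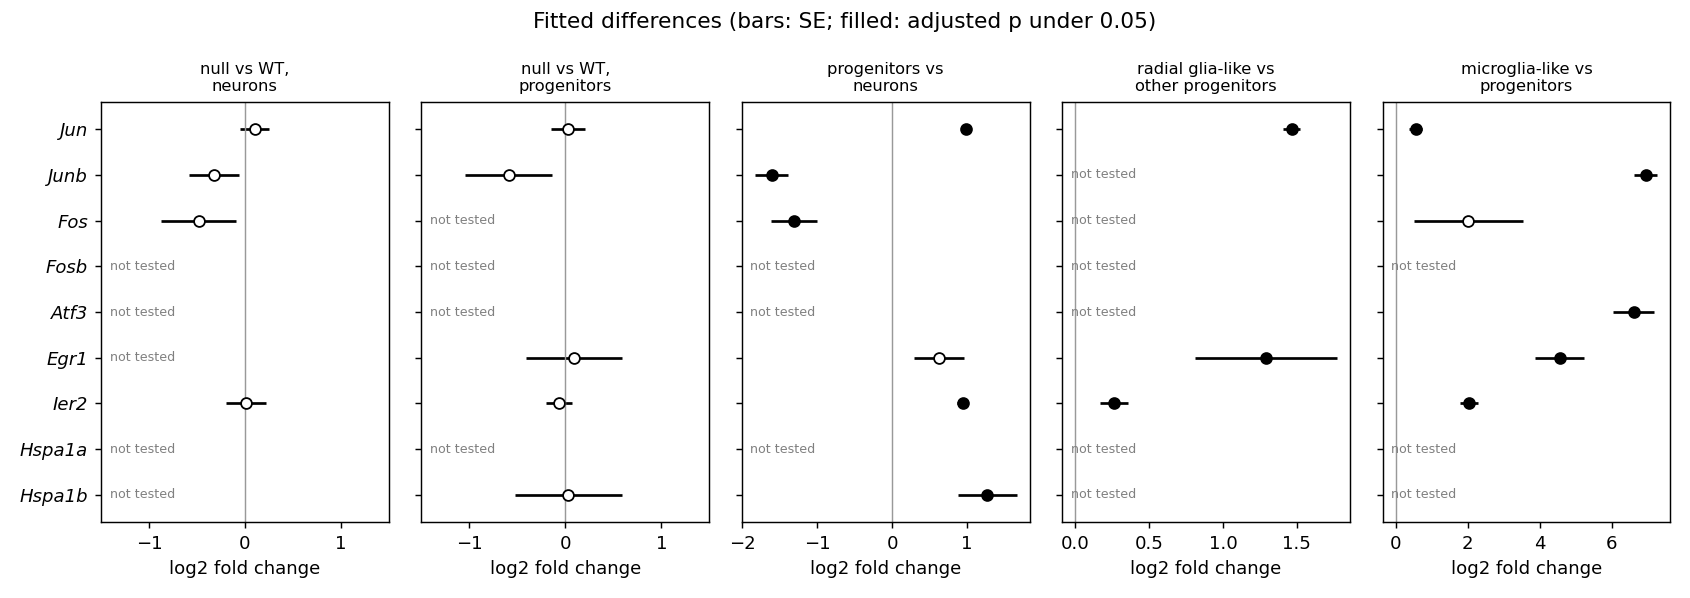
Fitted log2 fold changes (x axis, with SE) of the 9 genes in 5 comparisons, filled where the adjusted p is under 0.05, with genes too low to be fitted marked as not tested. None of the open points in the null against WT panels passed, and Junb reached 6.94 and Atf3 6.60 in the microglia-like cluster against progenitors, where both passed the low-count filter through the microglia-like cluster alone.

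Radial glia-like cells were then compared with the other progenitors. Jun was higher by a log2 fold change of 1.47 ± 0.059 (adjusted p = 3.09e-33), Egr1 by 1.29 ± 0.48 (adjusted p = 0.0157) and Ier2 by 0.26 ± 0.096 (adjusted p = 0.0140), where 33.2% of all genes were higher (65.4% of 13155 differed in either direction). Egr1 passed the low-count filter through radial glia-like cells alone and rested on 24 and 20 UMIs, at 0.360 to 1.51 and 0.205 to 0.636 CPM, and its range of 0 to 0.986 CPM in background droplets spans the second and overlaps the first. Jun alone was called by DESeq2 (Egr1 adjusted p = 0.137, Ier2 adjusted p = 0.150). Jun alone was also called by the quasi-likelihood test without WT replicate 2 (Ier2 log2 fold change 0.21, adjusted p = 0.0924). Without null replicate 1, Egr1 was not called (adjusted p = 0.0630). The classes were set from other genes of these same cells, so these tests compare cells already grouped by expression.

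Related genes from lists around these pathways were read in the same comparisons. Of 36 other immediate early genes, 31 were tested between progenitors and neurons, and 12 were higher and 9 lower in progenitors, with a median log2 fold change of 0.05 against -0.01 over all genes. Of the 27 that passed the low-count filter through both classes, 10 were higher and 7 lower. Another 2 passed through neurons alone and 2 through progenitors alone, and all of these were called. Btg2, an antiproliferative gene of dividing neural progenitors, stood at 185 to 205 CPM in progenitors and 26.9 to 35.05 CPM in neurons (log2 fold change 2.61 ± 0.052). Ccn1, a matrix protein gene induced through SRF and YAP, stood at 11.4 to 19.1 and 1.91 to 3.56 CPM. Rhob and Dusp1, a small GTPase and a phosphatase that shuts off MAP kinases, were higher in neurons, at 44.2 to 53.3 and 36.7 to 44.3 CPM against 17.5 to 22.4 and 21.7 to 23.9 CPM in progenitors. Of all genes, 39.5% were higher and 40.5% lower.

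Ccn1 was also the list gene that differed most between radial glia-like cells (31.4 to 50.5 CPM) and other progenitors (3.28 to 3.81 CPM), with a log2 fold change of 3.54 ± 0.10. Of the 26 tested there, 7 were higher and 8 lower, where 33.2% and 32.1% of all genes were. Of the 24 that passed the low-count filter through both classes, 5 were higher and 8 lower. The other 2 passed through radial glia-like cells alone and were both called higher. Jund, an AP-1 subunit that is expressed without induction, ran against Jun, at 279 to 333 CPM in radial glia-like cells and 396 to 480 CPM in other progenitors (log2 fold change -0.56 ± 0.050, adjusted p = 9.64e-16). In background droplets Jund stood at 245 to 289 CPM, a range that overlaps that of radial glia-like cells. Dusp1 was lower in radial glia-like cells as well, at 8.80 to 11.4 against 27.8 to 30.6 CPM.

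Of the other heat shock and chaperone genes, 20 of 23 tested were higher in progenitors and 2 lower, where 39.5% and 40.5% of all genes were, with a median log2 fold change of 0.50 against -0.01 over all genes. Serpinh1, the collagen chaperone HSP47 of the endoplasmic reticulum, stood at 51.1 to 72.1 CPM in progenitors and 13.5 to 19.4 CPM in neurons. Hsp90b1, Hspd1 and Stip1, chaperones of the endoplasmic reticulum, the mitochondrion and the HSP90 cycle, were higher by log2 fold changes of 0.89, 0.84 and 0.78. Dnajb4 and Dnaja1, cochaperones of HSP70, were lower by 0.17 and 0.10 (log2 fold changes of -0.17 and -0.10). In radial glia-like cells 15 of 23 were higher and 5 lower than in other progenitors, with a median of 0.31 against 0.01 over all genes, of which 33.2% were higher and 32.1% lower, and Serpinh1 led again with 110 to 148 against 25.5 to 34.8 CPM. Of the 22 that passed the low-count filter through both classes, 14 were higher and 5 lower. The 2 members of the heat shock list stayed under 1 CPM in both classes.

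The other lists are set against the shares of all genes, 39.5% higher and 40.5% lower in progenitors than in neurons, and 33.2% higher and 32.1% lower in radial glia-like cells than in other progenitors. Of 16 factors upstream of immediate early genes, 6 were higher and 6 lower in progenitors, among them Atf1 (log2 fold change 1.09) and the kinase gene Mapk8, which encodes JNK1, the kinase of JUN, at 49.7 to 79.3 CPM in progenitors and 105 to 143 CPM in neurons (-0.87). In radial glia-like cells 3 were higher and 5 lower, with Mapk8 at 24.0 to 45.5 against 62.2 to 95.9 CPM in other progenitors (-1.26), the class in which Jun was lower. Of 12 tested genes of the integrated stress and unfolded protein response, 5 were higher and 4 lower in progenitors, with Atf4 at 75.4 to 84.1 against 62.0 to 68.6 CPM and the stress factor Ddit3 at 16.7 to 18.4 against 29.9 to 38.7 CPM. Of the 11 that passed the low-count filter through both classes, 5 were higher and 3 lower. Of 6 tested late genes of neuronal activity, Gadd45g was higher in progenitors (148 to 189 against 18.4 to 29.8 CPM) and 4 were lower, among them Scg2 (0.993 to 1.67 against 5.88 to 14.3 CPM). In radial glia-like cells 5 of 11 tested stress response genes were higher and 4 lower than in other progenitors, led by Asns and Xbp1 (1.64 and 1.11 on the log2 scale), and 3 of 5 late genes were lower. Of these 5, 2 passed the low-count filter through other progenitors alone, and both were among the 3.

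St18 null was compared with WT to ask whether the members differ with genotype. Each class was summed over its clusters, whose sizes differed between libraries (neuron cluster 2 held 961 cells, with 18 in the smallest library). These values therefore do not part the mix of clusters from the level per cell. In neurons, Jun had a log2 fold change of 0.10 ± 0.15 (adjusted p = 0.758), Ier2 of 0.01 ± 0.21 (adjusted p = 0.985), Junb of -0.32 ± 0.26 (adjusted p = 0.549) and Fos of -0.48 ± 0.40 (adjusted p = 0.551). None of the 4 tested members passed, where 0.0657% of 13691 genes did, and none reached an unadjusted p under 0.05 in this test, where 17% of all genes did, or in DESeq2. In progenitors, none of 5 passed either, where 0.0293% of 13641 genes did, again with none at an unadjusted p under 0.05 by either tool, where 17.7% of all genes were in the quasi-likelihood test. With so few members tested, these counts of 0 are close to the shares over all genes. Jun had a log2 fold change of 0.03 ± 0.18 there, Ier2 of -0.07 ± 0.13, Egr1 of 0.09 ± 0.50, Hspa1b of 0.03 ± 0.56 and Junb of -0.59 ± 0.46 (adjusted p between 0.519 and 0.984). The standard errors leave room for moderate differences, above all in the rare members. No gene of the 5 related lists passed in either class. Hspe1, a mitochondrial cochaperone, had the smallest p in both, at a mean of 253 CPM in null and 322 CPM in WT neurons (log2 fold change -0.49 ± 0.13, adjusted p = 0.142) and 406.5 against 523 CPM in progenitors (-0.55 ± 0.14, adjusted p = 0.141). The null effect in progenitors minus that in neurons passed for none of 6 members (Jun -0.11 ± 0.088, adjusted p = 0.787) and for 1.13% of all genes. Among the related lists it passed for Hsph1, an HSP70 cochaperone, alone (0.30 ± 0.078, adjusted p = 0.0389).

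The value for Jun rested on which null library was used. Without null replicate 1, Jun in progenitors was lower in null (log2 fold change -0.27, adjusted p = 0.0166), and without the library labelled null replicate 2 it was higher (0.28, adjusted p = 0.0166). Each of these fits holds a single null library, which is assumed to vary like the WT pair, so neither is read as a difference between genotypes. Null replicate 1 was above the mean of the other 3 libraries by 1.29 times in neurons, 1.34 times in radial glia-like cells, 1.27 times in other progenitors and 1.29 times in background droplets. In that library, cells with Xist and cells with Y-linked transcripts both stood high, at 197 and 188 CPM in radial glia-like cells, against 138 and 146 CPM in the male-classed cells of the WT libraries. Its median mitochondrial share of 4.20% lay between those of the library labelled null replicate 2 (4.47%) and the WT libraries (3.58% and 3.68%), and the part of library handling in the difference was not tested.

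Shares of cells with a UMI moved with depth. With all UMIs, Jun was found in 38.0% ± 3.10 of null and 32.6% ± 0.856 of WT progenitors (SD, n = 2), and after thinning each cell to 2000 UMIs in 13.02% ± 1.88 and 12.2% ± 0.824 (two-sided exact permutation p = 0.667, n = 2). Null cells were sampled more deeply, with medians of 8674 and 11092 UMIs against 7882 and 7476. For Ier2 in progenitors, the difference of 3.71 percentage points with all UMIs became -0.07 after thinning (3.06% ± 0.156 in null and 3.13% ± 0.351 in WT, exact permutation p = 1, n = 2). In neurons, thinned shares were 7.90% ± 1.51 and 6.78% ± 0.556 for Jun (exact permutation p = 0.667, n = 2) and 1.79% ± 0.379 and 1.47% ± 0.00747 for Ier2 (exact permutation p = 0.33, n = 2). This is the smallest p that 2 libraries against 2 can give, so no share could pass.

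**Figure D5:**
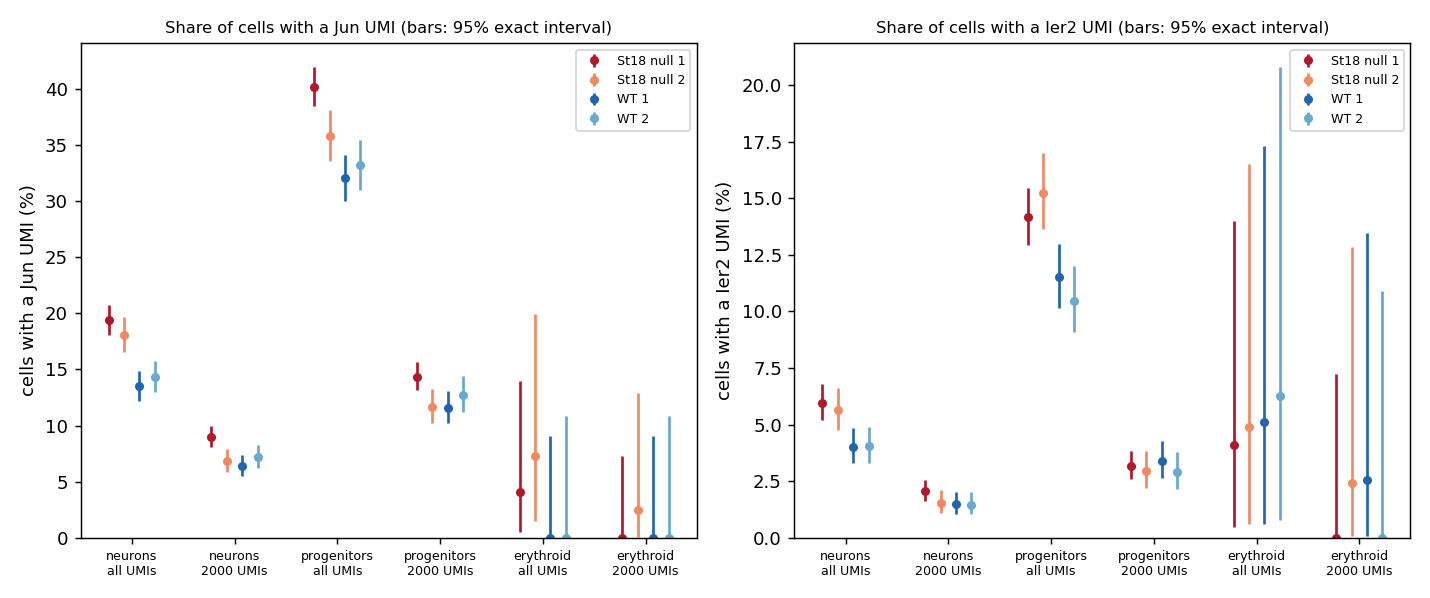
Share of cells with a Jun UMI (left) or an Ier2 UMI (right) in percent, with all UMIs and after thinning each cell to 2000 UMIs, for neurons, progenitors and erythroid cells, with a point for each library and its exact 95% binomial interval. With all UMIs both null libraries lay above both WT libraries for both genes in neurons and progenitors. After thinning the groups overlapped, except for Ier2 in neurons.

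Jun in radial glia-like cells was lower in the cells with the highest mitochondrial share than in those with the lowest. Radial glia-like cells were split within each library into 3 equal bins by mitochondrial share. Jun stood at 208, 151, 142 and 159 CPM in the lowest bin and at 134, 68.6, 121 and 112 CPM in the highest, lower in all 4 libraries. Without the clusters low in UMIs the values were 212, 158, 142 and 172 CPM against 158, 112, 135 and 143 CPM, again lower in 4 of 4. The middle bin, at 187, 147, 149 and 137 CPM, lay between them in both null libraries, above both in WT replicate 1 and below both in WT replicate 2. Cells of the highest bin also held fewer UMIs, with a median of 4234 against 9976 in null replicate 1, and the part of depth was not tested. In other progenitors Jun went from 64.9, 53.3, 46.4 and 50.5 CPM in the lowest bin to 56.9, 44.0, 39.7 and 55.3 CPM in the highest, lower in 3 libraries and higher in WT replicate 2. In neurons the order of the bins differed between libraries. None of these differences was tested. Barcodes over the mitochondrial limit, which were left out, held Jun at 78.6, 49.6, 117 and 94.0 CPM and Junb at 6.50, 2.25, 12.1 and 16.7 CPM, from 45 Junb UMIs in all.

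Junb and Atf3 were higher in CPM in the microglia-like cluster than in every other class with a UMI of the gene, in all 4 libraries. Ier2 had its highest mean CPM there. In erythroid cells Junb stood at 2.31 to 16.4 CPM, a level lowered by the erythroid markers. Against progenitors, Junb was higher by a log2 fold change of 6.94 ± 0.32 (adjusted p = 1.58e-99), Atf3 by 6.60 ± 0.58 (adjusted p = 3.98e-29), Egr1 by 4.55 ± 0.68 (adjusted p = 1.78e-10), Ier2 by 2.04 ± 0.24 (adjusted p = 7.73e-16) and Jun by 0.56 ± 0.17 (adjusted p = 0.00347). Fos did not pass (2.02 ± 1.52, adjusted p = 0.263, from 2 UMIs). Among all genes, 24.3% were higher and 51.3% differed. Junb, Atf3, Egr1 and Fos passed the low-count filter (here 2 library sums of at least 1.41 CPM) through the microglia-like cluster alone, so the number of tested members called is no support. Without the filter, where all 9 were fitted, Junb had an adjusted p of 1.59e-104, Atf3 of 1.60e-26 and Egr1 of 4.42e-09. Jun was not called without WT replicate 2 (log2 fold change 0.34, adjusted p = 0.203) or with library totals in place of TMM scaling (adjusted p = 0.102). The cluster also held vessel and erythroid markers, whose part in these values was not tested. Junb stood at 106, 64.8, 51.3 and 110 CPM, and Atf3 at 20.7, 20.2, 7.32 and 58.1 CPM, against at most 1.12 and 0.364 CPM in progenitors.

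Cells of that cluster were also assigned to the marker list, of microglia, endothelial and mural cells, with most UMIs, a split made after the data were seen. The values are pooled over libraries, and their Poisson intervals cover counting error only, so no difference between these cell groups was tested. The 98 microglia-marker cells held 42 of the 43 Atf3 UMIs, at 52.1 CPM (95% Poisson interval 37.5 to 70.4), and 14 endothelial and 21 mural cells held 1 and 0. A single microglia-marker cell held 16 of the Atf3 UMIs, and WT replicate 2 gave 28 of the 43. Ier2 was at 31.0 CPM (20.1 to 45.8) in microglia-marker cells, at 72.9 CPM (46.2 to 109) in endothelial and at 120 CPM (82.0 to 169) in mural cells, where a single cell held 14 of the 32 UMIs. Junb stood at 76.9, 108 and 105 CPM with overlapping intervals, and a single cell held 13 of the 34 endothelial and 13 of the 28 mural UMIs. Single microglia-marker cells held many of these UMIs. A cell of WT replicate 2 with 15946 UMIs held 16 Atf3, 15 Junb, 19 Jun and 7 Egr1 UMIs, and a cell of null replicate 1 held 25 Jun and 14 Junb UMIs. Atf3 was found in 14 of the 98 microglia-marker cells (14.3%), Junb in 19 and Jun in 33.

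Of the other immediate early genes, 17 of 28 tested were higher there than in progenitors and 3 lower, where 24.3% and 27.0% of all genes were, with a median log2 fold change of 1.73 against -0.19 over all genes. Of the 28, 5 passed the low-count filter through the microglia-like cluster alone, and all 5 were among the 17. Of the 23 that passed through both classes, 12 were higher and 3 lower. Klf2, a factor of endothelial and resting immune cells, stood at 76.9 to 217 CPM against 0.291 to 0.649 CPM, and Dusp6, Gadd45b and Zfp36 followed. Klf2 was among the genes that passed through the microglia-like cluster alone, so its call is no support for a difference. Chaperones were divided, with 7 of 26 higher, led by the small heat shock genes Cryab and Hspb1, and 11 lower, among them Hsp90aa1 at 494 to 637 against 1723 to 2095 CPM. Of the 26, 4 passed the low-count filter through the microglia-like cluster alone, Cryab and Hspb1 among them, and 3 of the 4 were among the 7. Of the 22 that passed through both classes, 4 were higher and 11 lower. Hspa1a and Hspa1b, with 0 and 1 UMI in 133 cells, were not tested there, and exact 95% Poisson intervals over the pooled cells reach 2.66 and 4.01 CPM, against 0.425 and 0.4995 CPM in progenitors. Of the upstream factors, 6 of 16 were higher, led by the ETS factor gene Elk3 (58.6 to 109 against 5.24 to 8.09 CPM), and 4 lower. Of the stress response genes 4 of 12 were higher, among them Xbp1 (40.3 to 76.8 against 12.6 to 18.5 CPM), and of the late genes 2 of 5 were lower.

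Egr1 had its highest level in oligodendrocyte precursor-like cells, a cluster of 10, 11, 8 and 3 cells led by Pdgfra, Olig1, Cspg4 and Sox10. It stood at 176, 89.7, 119 and 395 CPM there, with 51 UMIs in 17 of 32 cells (53.1%), against 0.390 to 0.851 CPM in all progenitors. Neurons and progenitors together held 70 Egr1 UMIs in 62 of 19964 cells. Every library showed it, and no cell held more than 7 of the UMIs. Fos stood at 20.7, 11.96, 11.9 and 0 CPM, from 5 UMIs in 4 cells, of which 2 also held Egr1. Junb, Atf3, Fosb, Hspa1a and Hspa1b had no UMI in these cells, where 0 of 32 allow, at 3 cells, a share of cells with a UMI of up to 9.38%, which does not limit the share that expresses the gene. With 3 to 11 cells a library these values were not tested.

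Genes with a pattern like the members' across clusters were ranked by Pearson's r of library-centred log2(CPM + 1) over 120 points (35 clusters, in libraries with at least 50 of their cells), as a description. Nearest to the 7 immediate early members summed were Nfix (r = 0.77), Serpinh1 (0.76), Nfia (0.74), Ttyh1 (0.74) and Sox9 (0.73). The sum is nearly Jun by count. The heat shock pair had no close partner, with r at most 0.36 (Cep89). Jun and Ier2 went together loosely (r = 0.48), while Junb ran slightly against both (r = -0.25 and -0.17). The points share libraries and depth and are not independent.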

How the data were processed

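Single-cell RNA was measured in 4 droplet libraries (10x Genomics). The authors deposited raw, unfiltered UMI counts per gene and barcode, aligned to GRCm38 (file headers name Cell Ranger 4, the submitters' processing notes 5.0.1). Whether the counting used strand or intronic reads is not given in the sources used here. Barcodes with at least 2000 UMIs and at most 10% mitochondrial UMIs were kept, and those with the highest Scrublet scores (a share that grew with the number of cells) were removed as doublets, because the tool's own threshold called at most 2 in a library. Clusters were made with Seurat 5.3.0 without the 9 members and related lists. For each library, the counts of a class were added up and tested with edgeR 4.0.16 (quasi-likelihood test, TMM, two-sided, Benjamini-Hochberg over all genes tested, adjusted p under 0.05), with DESeq2 1.42.0 as an alternative. The scripts were tested on simulated data. Positions are from GENCODE M21, where 32235 of 32285 gene IDs were found.

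The members and lists were chosen with earlier results of these data known. Named were all 9 members and, per comparison and list, up to 4 genes a direction with the largest fold change among those called with at least 10 CPM in the higher group, or up to 3 with the smallest p where none was called. Some of these are given as counts only. Replicate numbers follow the order of the samples and pair nothing. Intervals cover counting error only. Alternatives were other scaling, filters, limits on UMIs and mitochondrial share, doublets kept, male-classed cells, thinned cells, mixed clusters left out and each library left out. Leaving out the clusters low in UMIs was chosen after seeing the data.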

Additional observations from a re-analysis of the deposited data

Results flagged for a closer look

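Barcodes with 500 to under 2000 UMIs, which no comparison used, held Jun at 56.6 and 48.99 CPM in the null libraries (mean 52.8) and at 45.5 and 46.4 CPM in WT. Ier2 stood at 15.03 and 12.6 CPM (mean 13.8) and at 10.9 and 9.29 CPM there. Both null libraries were above both WT libraries for both genes, in data outside the main measurement, and the difference was not tested. Atf3 ran the other way (null libraries at most 0.442 CPM, WT libraries at least 0.496 CPM). Fos, Junb, Egr1, Hspa1a and Hspa1b overlapped between the groups. With so few libraries a group, a gene can readily separate by chance, in either direction. The share of all genes that separate in these barcodes was not counted, so no difference between genotypes is read from these values. These barcodes were shallow, with a median of 599 to 661 UMIs. In background droplets Ier2 did not separate the groups, since WT replicate 2 (15.2 CPM) was above the library labelled null replicate 2 (13.5 CPM). The part of free RNA was not tested.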

How the results depend on the processing

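Across all alternatives, 258 of the members' fold changes kept their direction and their side of the threshold, 7 kept only their direction, 1 newly passed and 21 turned, all of the last in comparisons of genotype or of genotype effects. Of those that turned, Jun in progenitors without null replicate 1 also passed, in a fit with a single null library. The cause was not tested unless stated.

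In neurons, the 9 genes called between null and WT became 299 with library totals, 248 without the low-count filter, 314 with DESeq2, 19 with a UMI threshold per library, 1 with male-classed cells only, 107 with thinned cells and 23 without clusters low in UMIs, and 64 to 2363 with a library left out (2363 without null replicate 1). In progenitors, 4 became 52 with library totals, 911 without the filter, 343 with DESeq2, 107 with doublets kept, 121 with thinned cells and 12 to 4722 with a library left out (4722 without null replicate 1, 2099 without the library labelled null replicate 2). Members called there were 0 to 1. The 163 genes called for the difference of effects became 67 with library totals and 0 to 204 with a library left out. Members called between progenitors and neurons were 3 with thinned cells, where 3 could be tested. Between radial glia-like cells and other progenitors 1 was called with DESeq2 and 1 to 3 with a library left out. In the main fits 79.9% and 65.4% of all genes differed in these comparisons, so these counts are no support for a difference.

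Null minus WT shares without thinning were 4.82 percentage points for Jun in neurons, 5.38 for Jun in progenitors, 1.76 for Ier2 in neurons and 3.71 for Ier2 in progenitors, where the sign turned from -0.07.

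In neurons, turned log2 fold changes were Ier2 -0.082 at a mitochondrial limit of 5% and Junb 0.039 in male-classed cells. With a library left out, Jun ran from -0.10 (without null replicate 1) to 0.298 and Ier2 from -0.28 to 0.269 (without the library labelled null replicate 2 for both highest values). In progenitors, Ier2 was 0.12 with library totals, Egr1 -0.026 with the UMI threshold and -0.12 at the limit of 5%, and Hspa1b -0.0066 with doublets kept and -0.031 without clusters low in UMIs. With a library left out, Jun ran from -0.272 to 0.283 and Ier2 from -0.212 to 0.061 (lowest without null replicate 1, highest without the library labelled null replicate 2), and Hspa1b from -0.31 to 0.554 and Egr1 from -0.15 to 0.539 (lowest without WT replicate 1). For the difference of effects the ranges were -0.126 to 0.011 for Jun, -0.180 to 0.13 for Ier2, -0.807 to 0.14 for Junb, -0.17 to 0.770 for Fos and -0.188 to 0.069 for Egr1. Library totals in place of TMM shifted the median of all genes by 0.145 (null against WT, neurons), 0.191 (progenitors) and -0.204 (microglia-like against progenitors).

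No paired analysis was possible because the labels give no replicate numbers that would pair null with WT libraries. Comparisons between classes kept the library as a block. Members with few UMIs are limited by depth. In male-classed cells only, 0 of 4 tested members in neurons and 0 of 2 in progenitors were called between genotypes. In the main fits 0.0657% and 0.0293% of all genes passed, so these counts of 0 say little about the members.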
